A study of Mus musculus with 6 samples.

Results

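Neurons release transmitter by fusing vesicles with the plasma membrane, and the 39 genes described here encode the proteins that carry this out. SNARE proteins on the vesicle and on the membrane zip together, synaptotagmins sense calcium, and active zone scaffolds hold vesicles beside calcium channels. In dorsal root ganglia (DRGs) the cell bodies of sensory neurons make these proteins and ship them to terminals in the skin and the spinal cord, and they also use them to release peptides from dense-core vesicles. The members were taken by symbol from a list of vesicle release genes, and all 39 were found among the 48440 rows of the gene count table and passed the filter on low counts.

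RNA sequencing compared 2 groups of 3 libraries from microinjected L3/4 DRGs of wild-type male mice. Control ganglia received AAV5-*Gfp*, an adeno-associated virus that expresses green fluorescent protein, and the other ganglia received AAV5-*V1* mixed with AAV5-*V2* (AAV5-*V1+V2*), which express both transcript variants of the long noncoding RNA *NIS-lncRNA*. All mice thus received a virus, the labels name no nerve injury, and the deposited text places the tissue at 5 weeks in one sentence and at 4 weeks in another. The labels give no strain for these libraries (the study names CD1 mice for such injections), and the sources used here give no age, no pooling of mice and no promoter for the viral transcripts, and each group received its own virus preparation, so that the virus and the transcripts cannot be told apart. The counts of *NIS-lncRNA* itself were not analysed here.

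Total counts were between 32025612 and 34764282 per library, with overlap between the groups. Marker genes matched the labelled tissue: 18 pan-neuronal markers summed to between 10117 and 18869 CPM (counts scaled to a common library size after TMM normalization), 8 Schwann cell myelin markers summed to at least 3485 CPM in every library, and of 6 spinal cord markers only *Aqp4* and *Gfap* passed the filter. Skeletal muscle markers varied from 9.10 to 381 CPM in sum without separating the groups. Macrophage markers did separate them, as given below. From here on, the values of a gene in 3 libraries stand in the order of replicates 1, 2 and 3, in TMM-normalized CPM.

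The presynaptic genes were lower in AAV5-*V1+V2* than in AAV5-*Gfp* DRGs. Of the 39 members, 18 fell and 0 rose (edgeR's quasi-likelihood test, Benjamini-Hochberg adjusted p under 0.05 over 18593 genes), where 5.27% of all genes tested were called lower and 10.1% higher. At an unadjusted p under 0.05, 33 members were lower and 0 higher, where 15.5% of all genes were lower. The median log2 fold change over the members was -0.47, against -0.0003 over all genes tested. Lists of neuronal markers lay near it, with medians of -0.39 (18 pan-neuronal), -0.33 (8 nociceptor) and -0.36 (8 large-diameter neuron markers), and with 18, 8 and 7 values below 0. In 36 of the 39 members every AAV5-*V1+V2* library lay below every AAV5-*Gfp* library, which was so for 22.0% of all genes tested. It was also so for 13 of the 18 pan-neuronal, 7 of the 8 nociceptor and 6 of the 8 large-diameter neuron markers. The log2 fold change was below 0 in 38 members on this scale, but in only 21 when the libraries were scaled to pan-neuronal markers. CPM are shares of a library. In whole ganglia, fewer neurons, less RNA per neuron and more RNA from other cells therefore cannot be told apart.

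**Figure D1:**
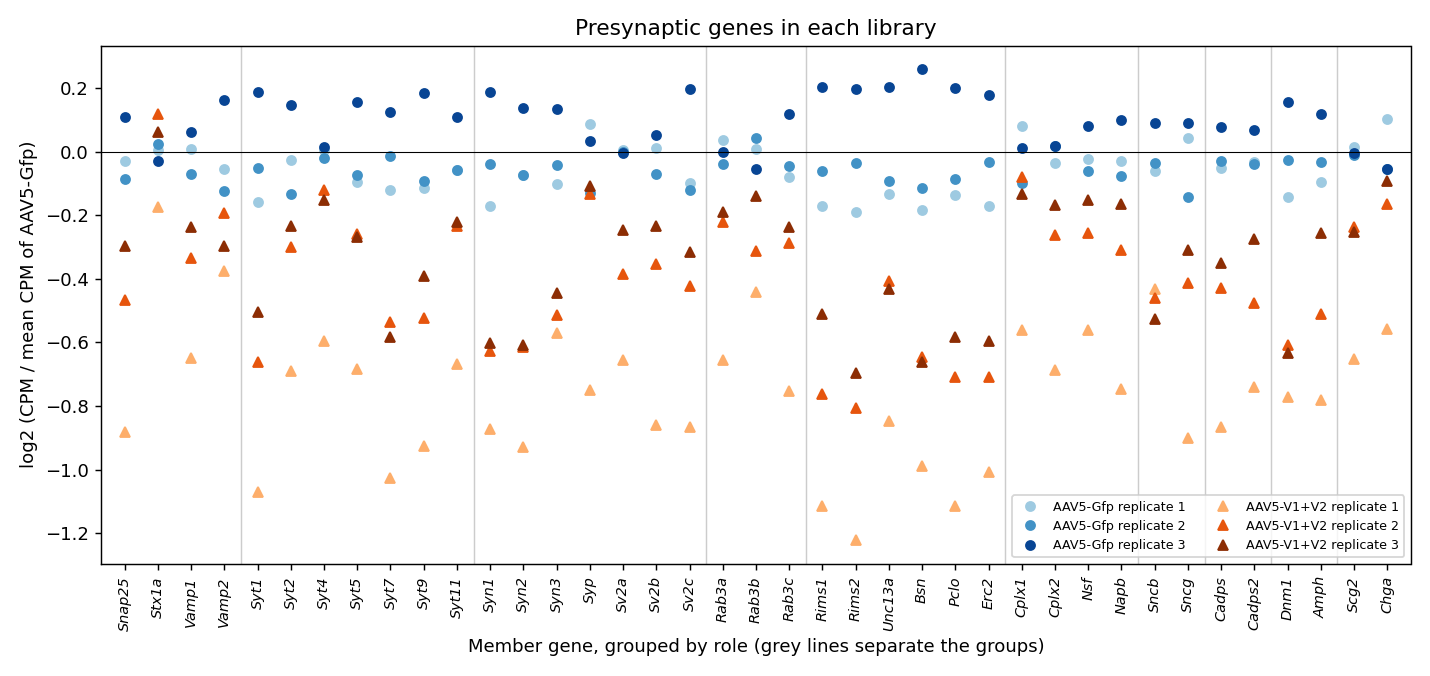
Each column is a member gene, grouped by role, and each point is 1 library, as the log2 ratio of its TMM-normalized CPM to the mean of the 3 AAV5-*Gfp* libraries (circles: AAV5-*Gfp*; triangles: AAV5-*V1+V2*). The triangles lie below the circles in 36 of 39 genes, and AAV5-*V1+V2* replicate 1 is lowest of all 6 libraries in 38; under scaling to pan-neuronal markers 17 genes turn from below to above 0.

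The libraries of a group were not alike. Relative to the AAV5-*Gfp* mean, the median log2 ratio over the 39 members was -0.75 in AAV5-*V1+V2* replicate 1, -0.41 in replicate 2 and -0.28 in replicate 3. It was -0.05 in AAV5-*Gfp* replicates 1 and 2 and 0.11 in replicate 3, which held the highest value of 31 members. Summed over the members, the level was 8074, 7900 and 8978 CPM with AAV5-*Gfp* and 4752, 6316 and 6711 CPM with AAV5-*V1+V2*. The 18 pan-neuronal markers, none of them a member, put the 6 libraries in the same order, at 17351, 16130 and 18869 CPM against 10117, 13741 and 14970 CPM in sum. Hence the members made up 46.5%, 49.0% and 47.6% of the pan-neuronal sum with AAV5-*Gfp* and 47.0%, 46.0% and 44.8% with AAV5-*V1+V2*, and these ranges overlap.

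Immune cell markers moved the other way. The 10 macrophage markers summed to 266, 261 and 188 CPM with AAV5-*Gfp* and to 1493, 797 and 548 CPM with AAV5-*V1+V2*, and 9 of the 10 rose. AAV5-*V1+V2* replicate 1, where the members were lowest, had the highest macrophage sum, and AAV5-*Gfp* replicate 3, where most members were highest, had the lowest. All 8 B and plasma cell markers and 7 of 8 T and natural killer cell markers also rose, from sums of 19.0 to 33.2 and 2.31 to 7.81 CPM with AAV5-*Gfp* to 286 to 456 and 27.4 to 62.0 CPM. Of 10 nerve injury genes 3 rose, where 10.1% of all genes tested were called higher. They were *Atf3* (log2 fold change 0.78, adjusted p = 0.0269), *Ecel1* (1.07, adjusted p = 0.0432) and *Csf1* (0.58, adjusted p = 0.0301), with a median of 0.51 over the list. *Gap43* (-0.26) and *Sox11* (-0.23) had every AAV5-*V1+V2* library below every AAV5-*Gfp* library and were not called. The summed level of the list overlapped between the groups, at 176, 183 and 181 CPM against 176, 205 and 177 CPM. Of 6 fibroblast genes 2 rose, *Col3a1* (0.90, adjusted p = 0.0146) and *Col1a2* (0.84, adjusted p = 0.0425). The part of these cells and genes in the lower levels of the members was not tested.

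**Figure D2:**
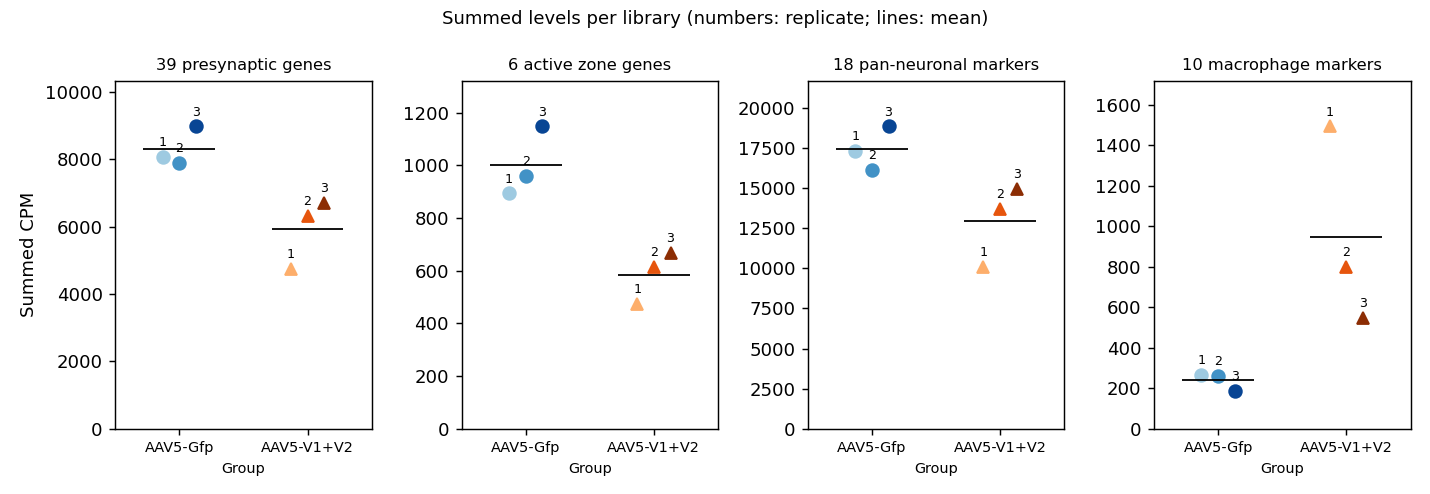
Summed TMM-normalized CPM in each library of the 39 members, the 6 active zone members, the 18 pan-neuronal markers and the 10 macrophage markers (points: libraries with their replicate number; lines: group means; axes start at 0). The first 3 sums are lower in every AAV5-*V1+V2* library than in every AAV5-*Gfp* library, and the macrophage sum is higher.

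The active zone is the patch of membrane where vesicles dock and fuse. All 6 of its members fell, with a median log2 fold change of -0.77, where 5.27% of all genes tested were called lower. When scaled to pan-neuronal markers 1 of 6 fell, *Rims2*, where 0.199% of all genes were called lower. *Erc2*, *Rims1*, *Rims2* and *Pclo* span 856, 520, 486 and 348.5 kb, and 22.4% of all genes of 100 kb or more were called lower. With offsets for gene span, given below, *Rims2*, *Bsn* and *Pclo* kept the call, and *Rims1*, *Erc2* and *Unc13a* did not. *Rims2*, which encodes a scaffold that binds RAB3 and calcium channels, had 155, 172 and 203 CPM with AAV5-*Gfp* and 75.8, 101 and 109 CPM with AAV5-*V1+V2*. The groups did not overlap, and the level fell to 54.0% of the control (log2 fold change -0.89, standard error 0.154, adjusted p = 0.0173 by edgeR's test), the lowest ratio among the 39 members. The gene occupies bases 39198261 to 39684372 of chromosome 15 (GRCm38, plus strand). Its paralog *Rims1* stood at 148, 159.8 and 192 CPM against 77.0, 98.3 and 117 CPM (log2 fold change -0.77, standard error 0.162, adjusted p = 0.0262). Thus both RIM genes had their lowest control library well above their highest AAV5-*V1+V2* library.

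Bassoon and piccolo are giant scaffolds that tether vesicle clusters to the active zone. *Bsn* had 57.6, 60.5 and 78.3 CPM with AAV5-*Gfp* and 33.0, 41.8 and 41.4 CPM with AAV5-*V1+V2* (log2 fold change -0.76, standard error 0.143, adjusted p = 0.0205). *Pclo* had 235, 243.5 and 297 CPM against 119, 158 and 173 CPM (-0.78, standard error 0.154, adjusted p = 0.0227). *Erc2*, whose product links RIM to the scaffold, had 229, 252 and 291 CPM against 128, 157.5 and 170.3 CPM (-0.76, standard error 0.132, adjusted p = 0.0175). In each of these genes AAV5-*V1+V2* replicate 1 was the lowest library and AAV5-*Gfp* replicate 3 the highest. *Unc13a* encodes MUNC13-1, which opens syntaxin so that vesicles become ready to fuse, and it had 68.5, 70.5 and 86.7 CPM against 41.85, 56.8 and 55.8 CPM. The difference came to -0.55 on the log2 scale (standard error 0.141, adjusted p = 0.0425), the least of the 6 active zone members in size.

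Synapsins coat vesicles and hold them in a reserve pool, and all 3 synapsin genes fell, but 0 of 3 did when scaled to pan-neuronal markers. *Syn2* had 63.0, 63.0 and 72.9 CPM with AAV5-*Gfp* and 34.8, 43.3 and 43.5 CPM with AAV5-*V1+V2* (log2 fold change -0.71, standard error 0.108, adjusted p = 0.0144). *Syn1* had 50.01, 54.8 and 64.1 CPM against 30.8, 36.5 and 37.1 CPM (-0.69, standard error 0.115, adjusted p = 0.0162). *Syn3* had 151, 157.5 and 178 CPM against 109, 113.5 and 119 CPM (-0.51, standard error 0.0817, adjusted p = 0.0156). The 3 AAV5-*V1+V2* libraries lay close together in *Syn3*, with less of the gap between replicate 1 and the others that most members showed. Of the exon length of *Syn3*, 14.1% is shared with exons of *Timp3* on the opposite strand, and *Timp3* stood at 0.07 (standard error 0.121) on the log2 scale. The use of strand in the counting is not given in the sources used here, so reads from such a stretch cannot be assigned with certainty. The same limit holds for *Syp* (16.8% of its exon length), *Syt4* (14.5%), *Rab3b* (9.0%), *Syt7* (5.13%) and *Unc13a* (3.92%), and for smaller shares in some other members.

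Among the vesicle membrane proteins, *Sv2a*, which encodes a glycoprotein found on nearly all synaptic vesicles, fell from 23.45, 23.3 and 23.3 CPM to 14.8, 17.9 and 19.7 CPM (log2 fold change -0.42, standard error 0.109, adjusted p = 0.0438). The control libraries lay close together in this gene, and the other group was spread. *Sv2b* (-0.46, adjusted p = 0.0848) and *Sv2c* (-0.52, adjusted p = 0.0674), its paralogs, did not pass the threshold of edgeR's quasi-likelihood test. In both, every AAV5-*V1+V2* library lay below every AAV5-*Gfp* library, as in 22.0% of all genes tested. DESeq2, limma-voom with sample weights and the exact test called both lower, and called 7.53%, 10.7% and 7.81% of all genes lower. *Syp* encodes synaptophysin, the most used marker of synaptic vesicles, and had 282, 243 and 272 CPM against 158, 242 and 247 CPM. Here AAV5-*V1+V2* replicate 3 was above AAV5-*Gfp* replicate 2, and the difference of -0.30 (log2 scale, standard error 0.17) had an adjusted p of 0.250. Thus 4 of the 7 genes for coat and membrane proteins fell by the quasi-likelihood test and 0 after pan-neuronal scaling, while DESeq2, limma-voom with sample weights and the exact test each called 6.

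Promoter sequences are shown for 3 members, those that hold a searched motif upstream of the start. RefSeq promoter windows of GRCm38.p6, from 250 bases before to 50 bases after the start of transcription, were matched for 32 of the 39 members (39 windows, with more than 1 start for some genes). *Syt4*, *Syn3*, *Snap25*, *Rims2*, *Syt5*, *Syt7* and *Vamp2* had no match. The median GC content was 61.3% over the members' windows and 52.7% over all 32851 windows. Searched on both strands were the cAMP response element TGACGTCA, the left part TTCAGCACC of the site of REST (a repressor of neuronal genes in other cells), the ETS core CCGGAAGT, and the palindrome bound by NRF1, whose letters stand in capitals in the *Bsn* stretch below. The REST letters were found in *Syn1*, *Unc13a* and *Scg2*, in 7.69% of the members' windows and 0.371% of all windows. The cAMP response element was found in *Syn1* and *Scg2* (5.13% of the members' windows and 1.79% of all), and the NRF1 palindrome in *Bsn* (2.56% and 0.971%). The ETS core was found in 0 of the members' windows and in 3.89% of all windows. None of these motifs overlapped another in the stretches below, which run 5′ to 3′ on the strand of the gene and end at the base before the start, with the motif letters in capitals. In *Syn1* (chrX:20920919-20921168, minus strand) these are the REST letters at -232 and the cAMP response element at -159, in *Bsn* (chr9:108190384-108190543, minus strand) the NRF1 palindrome at -148 and -17, and in *Scg2* (chr1:79440027-79440106, minus strand) the cAMP response element at -68. The REST letters of *Scg2* and *Unc13a* reach into the transcribed part and are not printed. The starts are those of RefSeq. The GENCODE M21 models used for gene span begin further upstream, at base 79440120 for *Scg2* and 20921004 for *Syn1*. All of the *Scg2* stretch, and the part of the *Syn1* stretch nearest the start, therefore lie inside those models. A match is a description of the letters, and not of binding.
Syn1: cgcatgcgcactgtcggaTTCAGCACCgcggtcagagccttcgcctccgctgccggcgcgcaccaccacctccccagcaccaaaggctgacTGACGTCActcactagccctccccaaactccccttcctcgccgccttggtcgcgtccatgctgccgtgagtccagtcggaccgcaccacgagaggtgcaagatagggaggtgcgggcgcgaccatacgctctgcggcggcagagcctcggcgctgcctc
Bsn: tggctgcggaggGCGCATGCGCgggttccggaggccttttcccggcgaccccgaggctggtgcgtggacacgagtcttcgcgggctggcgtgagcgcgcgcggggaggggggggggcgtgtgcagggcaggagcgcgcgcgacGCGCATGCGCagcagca
Scg2: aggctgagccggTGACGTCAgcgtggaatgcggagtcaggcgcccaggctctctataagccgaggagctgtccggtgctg

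Synaptotagmins couple calcium to fusion, and 3 of the 7 members fell, with 0 called after pan-neuronal scaling. *Syt1*, a fast calcium sensor, had 271, 293 and 345 CPM with AAV5-*Gfp* and 144, 192 and 214 CPM with AAV5-*V1+V2* (log2 fold change -0.73, standard error 0.158, adjusted p = 0.0279). *Syt7*, a slower sensor of higher affinity, had 77.1, 82.9 and 91.2 CPM against 41.1, 57.8 and 55.9 CPM (-0.70, standard error 0.135, adjusted p = 0.0224). *Syt9*, another fast sensor, had 74.8, 75.9 and 92.0 CPM against 42.55, 56.3 and 61.7 CPM (-0.60, standard error 0.147, adjusted p = 0.0381). The other 4 had log2 fold changes between -0.39 and -0.27 and did not pass by the quasi-likelihood test. They were *Syt2*, also a fast sensor (-0.39, adjusted p = 0.0846), *Syt5* (-0.39, adjusted p = 0.0866), and *Syt4* and *Syt11*, whose products do not bind calcium as SYT1 does (-0.27 and -0.36, with adjusted p = 0.166 and 0.105). Of all 7, DESeq2 called 5 lower (with *Syt2* and *Syt11*) and the exact test 4 (with *Syt2*). Those 2 tools called 7.53% and 7.81% of all genes lower. In all 7, every AAV5-*V1+V2* library lay below every AAV5-*Gfp* library, which was so for 22.0% of all genes tested. Differences between single genes were not tested.

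Of the 4 core SNARE genes, 0 passed the threshold of edgeR's test. At an unadjusted p under 0.05, 3 of them were lower, where 15.5% of all genes tested were. DESeq2, limma-voom with sample weights and edgeR's exact test each called 2 of them lower, and limma-voom called 0. Of all genes, these tools called 7.53%, 10.7%, 7.81% and 4.53% lower, against 5.27% in the main fit. *Snap25*, which encodes the membrane SNARE cut by botulinum toxin A, had 815, 784 and 897 CPM with AAV5-*Gfp* and 451, 602 and 677 CPM with AAV5-*V1+V2*. Every AAV5-*V1+V2* library lay below every control library, as in 22.0% of all genes tested. The difference of -0.53 (log2 scale, standard error 0.155) had an adjusted p of 0.0585 by edgeR's quasi-likelihood test. *Vamp1* had 322, 305 and 334 CPM against 204, 254 and 272 CPM (-0.40, standard error 0.115, adjusted p = 0.0562). It encodes a vesicle SNARE, as does *Vamp2*, which had 43.1, 41.1 and 50.05 CPM against 34.5, 39.2 and 36.4 CPM (-0.29, standard error 0.094, adjusted p = 0.0790). *Stx1a*, the membrane partner of SNAP25, was the 1 member without a negative fold change, with 19.9, 20.2 and 19.45 CPM against 17.6, 21.5 and 20.7 CPM. Its libraries overlapped, and its value of 0.01 (log2 scale, standard error 0.0931, adjusted p = 0.962) turned to -0.02 with upper-quartile normalization.

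Of the 4 regulators of the SNARE complex, 0 passed by edgeR, DESeq2, limma-voom or the exact test. By limma-voom with sample weights 1 passed, where 10.7% of all genes were called lower. At an unadjusted p under 0.05, 3 were lower, where 15.5% of all genes tested were. Complexins clamp the assembled complex until calcium arrives, and *Cplx2* had 69.7, 72.3 and 72.4 CPM with AAV5-*Gfp* and 44.4, 59.5 and 63.6 CPM with AAV5-*V1+V2* (log2 fold change -0.36, standard error 0.127, adjusted p = 0.0975). *Cplx1* had 269.5, 238 and 257 CPM against 173, 241 and 233 CPM, so that AAV5-*V1+V2* replicate 2 stood above a control library (-0.24, adjusted p = 0.236). *Nsf*, the ATPase that takes spent complexes apart, and *Napb*, its adaptor, had log2 fold changes of -0.31 (adjusted p = 0.103) and -0.39 (adjusted p = 0.113). RAB3 proteins mark vesicles for the active zone, and *Rab3c* had 192, 196 and 220.3 CPM against 120.4, 166 and 172 CPM (-0.41, standard error 0.14, adjusted p = 0.0880). *Rab3a* (-0.34, adjusted p = 0.0976) and *Rab3b* (-0.29, adjusted p = 0.170) did not pass either. Of the 3 RAB3 genes, DESeq2 and the exact test each called 1 lower (*Rab3c*) and limma-voom with sample weights called 2 (*Rab3a* and *Rab3c*). The same tools called 7.53%, 7.81% and 10.7% of all genes lower. *Rab3b* was also the member with the fewest reads, at 112 counts in its lowest library.

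Both members that act in the recovery of vesicle membrane fell, and 0 did when scaled to pan-neuronal markers. *Dnm1*, which encodes the GTPase that pinches vesicles off, had 107, 116 and 131 CPM with AAV5-*Gfp* and 69.1, 77.5 and 76.05 CPM with AAV5-*V1+V2*. It had the smallest p of all members (log2 fold change -0.67, standard error 0.0919, adjusted p = 0.0144). *Amph*, for amphiphysin, which brings dynamin to the bud, had 164, 171 and 190.1 CPM against 102, 123 and 147 CPM (-0.50, standard error 0.134, adjusted p = 0.0472). Between them they show the range within the group, as the AAV5-*V1+V2* libraries lay close together in *Dnm1* and were spread in *Amph*.

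Dense-core vesicles carry neuropeptides, and the 2 genes that prime them for release fell, with 0 called after pan-neuronal scaling. *Cadps* had 552, 560.3 and 604 CPM with AAV5-*Gfp* and 314, 425 and 448 CPM with AAV5-*V1+V2* (log2 fold change -0.53, standard error 0.139, adjusted p = 0.0444). *Cadps2* had 48.15, 48.0 and 51.6 CPM against 29.5, 35.4 and 40.7 CPM (-0.49, standard error 0.116, adjusted p = 0.0358). The 2 granins, which are cargo of the same vesicles, did not pass. At an unadjusted p under 0.05, 1 was lower, where 15.5% of all genes tested were. DESeq2, limma-voom with sample weights and the exact test each called 1 lower, and called 7.53%, 10.7% and 7.81% of all genes lower. *Scg2* had 142, 139.8 and 141 CPM against 89.7, 119.6 and 118 CPM (-0.37, standard error 0.113, adjusted p = 0.0653), and *Chga* had a log2 fold change of -0.26 (adjusted p = 0.184). In *Scg2* the control libraries lay close together, and AAV5-*V1+V2* replicate 1 stood apart from the other 2. Of the synucleins, which bind vesicle membranes, *Sncb* fell from 8.06, 8.20 and 8.94 CPM to 6.23, 6.10 and 5.83 CPM (-0.47, standard error 0.105, adjusted p = 0.0295), and was the only member whose lowest library was not AAV5-*V1+V2* replicate 1. *Sncg* had 953.5, 839 and 985 CPM against 496, 695 and 747.5 CPM (-0.52, standard error 0.162, adjusted p = 0.0691).

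Per kilobase of exon the members differed widely in level. *Sncg* had the highest mean with AAV5-*Gfp*, at 1087 CPM per kb, followed by *Snap25* at 122 and *Cplx1* at 116 CPM per kb. The lowest were *Rab3b* at 1.31, *Sncb* at 3.92 and *Bsn* at 4.11 CPM per kb. Of the 3 highest, edgeR's quasi-likelihood test called 0, while DESeq2, limma-voom with sample weights and the exact test called *Sncg* and *Snap25* lower. These tools called 7.53%, 10.7% and 7.81% of all genes lower. Exon length here is the union of all annotated exons, which understates genes with many minor isoforms. Over the 39 members the log2 fold change had a Spearman rho of 0.235 with the log2 level per kb, given as a description.

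**Figure D3:**
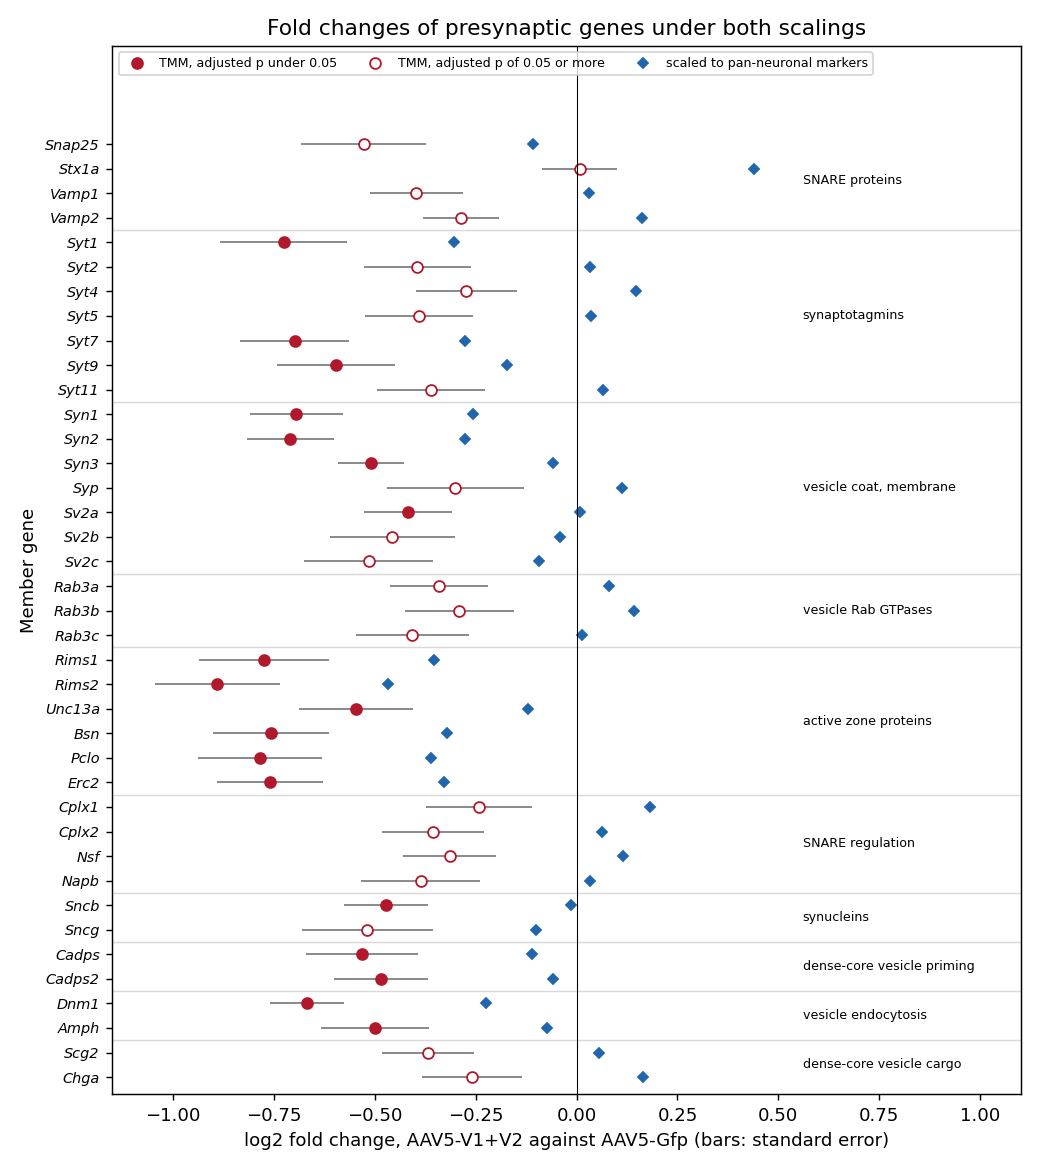
Log2 fold change of each member between AAV5-*V1+V2* and AAV5-*Gfp*, after TMM normalization (circles with standard errors; filled where the adjusted p was under 0.05) and after scaling to 18 pan-neuronal markers (diamonds). *Rims2* is furthest to the left on both scales; with the second scaling 17 members turn from below to above 0 and only *Rims2* remains called.

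When the libraries were scaled to the pan-neuronal markers instead of by TMM, most of the difference went. This scaling asks whether members changed relative to other neuronal RNA, and it moved the median log2 fold change of all genes tested to 0.45. The median of the members became -0.04, which is 0.49 below that of all genes. Only *Rims2* was still called lower, at -0.47 (standard error 0.119, adjusted p = 0.0397 by edgeR's test), where 0.199% of all genes were called lower and 19.4% higher. *Pclo* followed at -0.36 (adjusted p = 0.0506), *Erc2* at -0.33 (adjusted p = 0.0619), *Rims1* at -0.35 (adjusted p = 0.0635) and *Syt1* at -0.30 (adjusted p = 0.0666). By group, the median was -0.34 for the active zone members, -0.06 for coat and membrane proteins, 0.03 for synaptotagmins, 0.09 for SNARE regulators and 0.10 for SNARE proteins. *Stx1a* had the highest value, at 0.44 (adjusted p = 0.0593). The log2 fold changes of the 18 markers themselves ranged from -0.93 (*Rbfox3*, the gene of NeuN) to -0.20 (*Uchl1*) on the TMM scale, and 3 of them fell. The markers were mostly shorter genes, with a median span of 11.3 kb (422 kb for *Rbfox3*) against 64.1 kb for the members. Fold change ran along with span in both sets, as given below, and the part of span in the scaled values was not tested.

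Gene span, the distance from the first to the last annotated base, ran along with the fold change. Members with a span of 100 kb or more had a median log2 fold change of -0.52, and 11 of 16 fell, where 22.4% of the 2604 genes of that span were called lower. Of the 23 shorter members, 7 fell (median -0.39), where 2.34% of 15325 genes were called lower. The members that fell among the shorter ones were *Syt7*, *Syn1*, *Sv2a*, *Unc13a*, *Bsn*, *Sncb* and *Dnm1*. Spearman's rho between span and log2 fold change was -0.638 over the 39 members, -0.657 over the 18 pan-neuronal markers and -0.203 over 17929 genes with a gene model; genes share the 6 libraries, and these values are descriptions. *Erc2* spans 856 kb, *Rims1* 520 kb and *Syt1* 513 kb, whereas *Vamp2* spans 3.90 kb and *Rab3a* 4.00 kb. In the class from 200 to 500 kb, the median was -0.52 over 6 members and -0.21 over 812 genes, and in the class from 10 to 20 kb it was -0.33 over 4 members and 0.05 over 3376 genes. After offsets that remove the trend with span in each library, 12 members were called lower, where 3.4% of 17929 genes were. Of these members, 9 were among the 18 (*Syt7*, *Syn1*, *Syn2*, *Sv2a*, *Rims2*, *Bsn*, *Pclo*, *Sncb* and *Dnm1*), and the median of all members was -0.37.

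**Figure D4:**
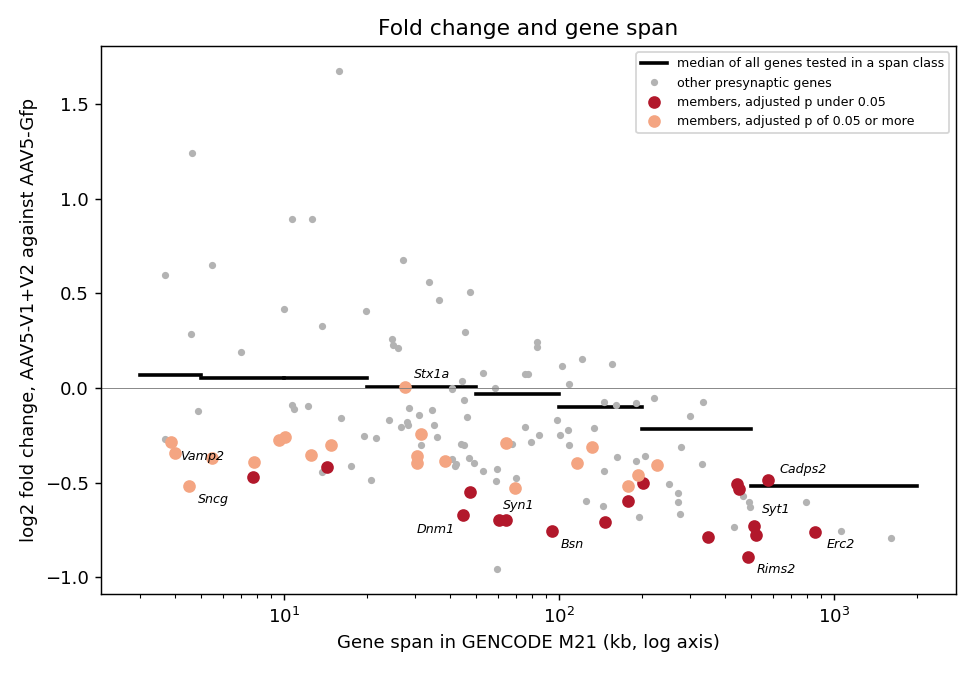
Log2 fold change against gene span on a log axis for the members (large points), other presynaptic genes (grey) and the median of all genes tested in 8 classes of span (black lines; the outer classes are drawn to the plotted range). Longer genes have lower values, and all members but *Stx1a* (0.01) and *Cadps2* (-0.49) lie below the line of their class.

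A wider list of 112 presynaptic genes, compiled by role, was read from the same test. Of the 105 that passed the filter, 17 fell and 7 rose, with a median log2 fold change of -0.19, where 5.27% of all genes were called lower and 10.1% higher. Scaling to pan-neuronal markers turned this to 0 lower and 17 higher, where 0.199% and 19.4% of all genes were called. Active zone genes made up 10 of the 17. *Rimbp2*, which encodes a partner of RIM and of calcium channels, had 38.0, 39.8 and 45.6 CPM with AAV5-*Gfp* and 23.0, 26.5 and 27.4 CPM with AAV5-*V1+V2* (log2 fold change -0.68, standard error 0.101, adjusted p = 0.0144). *Sh3gl2*, for the endocytic protein endophilin A1, had a log2 fold change of -0.74 (adjusted p = 0.0189), and *Nrxn2*, for a neurexin that joins both sides of the synapse, of -0.59 (adjusted p = 0.0231). *Unc13b* and *Unc13c*, paralogs of *Unc13a*, fell as well on the TMM scale, at -0.36 and -0.60.

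The 7 genes of the wider list that rose, in a comparison where 10.1% of all genes were called higher, are named here with their values. *Unc13d* encodes MUNC13-4, which serves granule release in cytotoxic lymphocytes, and had 3.04, 2.60 and 2.56 CPM with AAV5-*Gfp* and 13.1, 7.33 and 5.80 CPM with AAV5-*V1+V2* (log2 fold change 1.67, standard error 0.302, adjusted p = 0.0189). *Syngr2* (1.24, adjusted p = 0.0260) and *Vamp3* (0.89, adjusted p = 0.0380) came next. The others were *Stxbp2* and *Stxbp3*, which encode MUNC18 proteins outside of neurons (0.89 and 0.50), the SNARE gene *Vamp8* (0.65) and *Sh3gl1* (0.40). AAV5-*V1+V2* replicate 1 held the highest value in each of these 7, as it did in the sum of macrophage markers, and the part of immune cells in them was not tested. So the *Unc13* family had 3 genes that fell and 1 that rose, on the TMM scale only for those that fell.

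The number of calls depended on which libraries were kept, and was lowest without a control library. The median log2 fold change of the members was -0.50, -0.49 and -0.43 without AAV5-*Gfp* replicates 1, 2 and 3 in turn. Without AAV5-*Gfp* replicate 2 or without replicate 3, 0 members and 0% of all genes were called lower by edgeR's test, with 29 and 22 lower at an unadjusted p under 0.05, and without AAV5-*Gfp* replicate 1 the members that passed were *Syn1*, *Syn3* and *Dnm1*, with 0.311% of all genes called lower. When AAV5-*V1+V2* replicate 2 was left out 8 passed (0.794% of all genes), and when replicate 1 of that group was left out, in which levels were lowest, 25 passed (5.79% of all genes), with a median log2 fold change of -0.36. With AAV5-*V1+V2* replicate 3 left out, 24 passed (7.63% of all genes). In the wider list, 1, 0 and 0 genes fell without AAV5-*Gfp* replicates 1, 2 and 3 in turn and 4 without AAV5-*V1+V2* replicate 2, and 0 rose without any 1 of the control libraries and 1 without AAV5-*V1+V2* replicate 2. Of all genes, 1.35%, 0.0634% and 0.0792% were called higher without AAV5-*Gfp* replicates 1, 2 and 3 and 5.4% without AAV5-*V1+V2* replicate 2. An exact permutation test of a single gene cannot go below p = 0.1 with 3 libraries against 3.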

How the data were processed

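Ipsilateral L3/4 DRGs were profiled by stranded total RNA sequencing in 3 libraries per group. The authors deposited raw counts per gene for all 6 libraries in 1 table of 48440 rows, and the submitters' processing notes name the builds GRCm38 and mm10. The aligner, the annotation and the strand setting of the counting are not given in the sources used here, and 0 columns of sample values were left unused. Total counts were 32025612 to 34764282 per library, and no pair of libraries in a group agreed within sampling noise. The labels do not say that replicates are separate mice, so p-values measure only the spread between these samples, which may be technical.

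From these counts, edgeR (version 4.0.16, in R 4.3.3) was run with its expression filter (18593 genes kept), TMM normalization and the quasi-likelihood test, with group as the only term. Benjamini-Hochberg adjusted p under 0.05 was called. CPM were TMM-normalized, and standard errors were taken from the coefficient and the F statistic. The procedure was tested on simulated data. Alternatives included DESeq2 1.42.0, limma-voom (limma 3.58.1), other scalings and filters, a replicate block, and leaving out each library. Gene span, exon length and overlaps came from GENCODE M21, which matched 96.4% of genes tested, and promoters from RefSeq.

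Members and lists were chosen with earlier results of these data known. All members are named, and library values are given for each called member, for the member with the smallest p in each role, and for *Snap25*, *Stx1a*, *Vamp2* and *Syt1*. In addition, up to 3 genes of the wider list per direction were named by adjusted p, and *Syp*, *Cplx1*, *Sncg* and further called genes of the wider list after their values were seen. Some genes of the wider list are not reported here.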

Additional observations from a re-analysis of the deposited data

How the results depend on the processing

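Of 23 alternatives, 2 (offsets for gene span, and offsets for exon length and GC content) were chosen after seeing the data. The number of members called higher was 0 in each of the 23, and the median log2 fold change of the members stayed below 0, between -0.5316 and -0.0421. With scaling to pan-neuronal markers, 1 member was called lower, the median was -0.0421, and the wider list had 0 genes lower and 17 higher. Under it the log2 fold change turned above 0 for *Vamp1* (0.0318), *Vamp2* (0.16), *Syt2* (0.0333), *Syt4* (0.15), *Syt5* (0.04), *Syt11* (0.0643), *Syp* (0.11), *Sv2a* (0.0093), *Rab3a* (0.0804), *Rab3b* (0.14), *Rab3c* (0.0135), *Cplx1* (0.18), *Cplx2* (0.0638), *Nsf* (0.12), *Napb* (0.0334), *Scg2* (0.0560) and *Chga* (0.16). *Stx1a* turned below 0 with upper-quartile normalization (-0.0169), with offsets for exon length and GC content (-0.0516), and without AAV5-*Gfp* replicate 3 (-0.0075), AAV5-*V1+V2* replicate 2 (-0.0394) or replicate 3 (-0.0112); leaving out 1 library moved it between -0.0394 and 0.0947. The causes were not tested.

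Leaving out 1 library gave 0 to 25 members called lower, with medians from -0.5316 to -0.3556, and 0 to 29 genes lower and 0 to 8 higher in the wider list. Fewer libraries enter these fits. Among the other tools, the wider list had 33 genes lower by DESeq2, 34 by limma-voom with sample weights and 29 by edgeR's exact test, and 3 higher by limma-voom, against 17 and 7. In the same order of tools, the members called lower were 27, 27, 26 and 17. The shares of all genes called lower were 7.53%, 10.7%, 7.81% and 4.53%, against 5.27% in the main fit. Offsets for gene span left 6 genes of the wider list lower, with 3.4% of all genes called lower. At an adjusted p under 0.1, 30 members and 36 genes of the wider list were lower, with 10.9% of all genes called lower. With a 2-fold change required, 0 members were called, and 0 genes of the wider list were lower and 2 higher, with 0.253% of all genes called lower.

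The fit with the replicate number as a block called 25 members and 29 genes of the wider list lower, with 7.21% of all genes. The numbers were not taken as pairing the libraries, since no correlation of deviations between libraries of the 2 groups was above 0.107. Same-numbered libraries correlated at 0.036, 0.066 and 0.107, and other pairs at between -0.104 and 0.043. AAV5-*V1+V2* replicates 2 and 3 correlated best with the control library of the same number, and replicate 1 with AAV5-*Gfp* replicate 2. Over single members and alternatives, 701 values kept their direction and side of the threshold, 110 lost the call, 64 gained it and 22 changed direction. At these totals counting error is small beside the spread between libraries, and 3 libraries a group set the precision.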
